A study of Canis lupus familiaris with 6 samples.

Results

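The matrix proteases and their inhibitors were examined in CPEK cells, a canine epidermal keratinocyte line (labelled wild type), after a direct 30 s exposure to cold atmospheric microwave plasma (dCAMP) or to the gas alone. The genes were chosen by symbol: matrix metalloproteinases (MMP), tissue inhibitors of metalloproteinases (TIMP), and the ADAM, ADAMTS and ADAMTSL genes. The rule found 68 of the 35993 genes in the table, 22 of them MMP, 4 TIMP, 18 ADAM, 19 ADAMTS and 5 ADAMTSL. Cells were incubated for 15 min after exposure, given fresh medium and collected 24 h later for RNA-Seq, with 3 gas and 3 dCAMP libraries. Libraries held between 43084921 and 54082634 counts. The methods speak of 3 independent experiments for the study's data in general, but neither they nor the labels say how the 3 RNA-Seq libraries of a group were obtained, so p-values measure only the spread between these libraries, which may be technical.

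MMPs are zinc endopeptidases, secreted or held at the cell surface, that are made as inactive precursors and cut collagens, laminins and other matrix proteins. TIMPs bind the active site of MMPs, and TIMP3 stays bound to the matrix and also blocks several ADAM and ADAMTS enzymes. ADAMs are membrane proteins, of which only some are active proteases. ADAM10 and ADAM17 release growth factor precursors, Notch and cell adhesion molecules from the cell surface. Which ADAM members carry the zinc-binding motif of a protease was not determined here. ADAMTS enzymes are secreted and cut proteoglycans and procollagens, while ADAMTSL proteins share their ancillary domains and lack the protease domain. In skin wounds, keratinocytes at the edge use such proteases to loosen contacts with the matrix and with each other.

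Marker genes were read to check the labelled cell type. All 7 keratinocyte markers had a mean level of at least 1 FPKM (fragments scaled to transcript length and to the number of mapped reads), and their sum was between 18409 and 24916 FPKM, with KRT5 the most abundant. The keratinocyte sum was highest in gas 1, at 24916 FPKM, and lowest in dCAMP 3, at 18409 FPKM, and it was carried by KRT5, KRT14 and KRT17. The other 4 markers, DSG3, CDH1, TP63 and ITGA6, were lowest in gas 1, and DSG3 ran from 144 FPKM there to 254 FPKM in dCAMP 3. The 6 fibroblast markers summed to between 0.252 and 0.395 FPKM, with COL1A1 the most abundant and DCN, PDGFRB and LUM at 0 in every library. The 4 endothelial markers (KDR the most abundant, PECAM1 at 0) summed to 0.884, 1.08 and 0.899 FPKM in gas and to 1.44, 1.22 and 1.30 FPKM in dCAMP. They were thus higher in every dCAMP library than in every gas library, as were KDR and CDH5 singly. TEK went the other way, with 6, 0 and 4 counts in gas and 0 counts in each dCAMP library. The part of these endothelial markers in the results was not tested. The 4 melanocyte markers summed to between 0.12 and 0.689 FPKM (TYR and DCT at 0). MLANA had the highest mean of the melanocyte markers, through dCAMP 2 at 0.609 FPKM. It had 4, 0 and 0 counts in gas and 13, 16 and 11 counts in dCAMP. PMEL went the other way, with 35, 24 and 39 counts in gas and 15, 13 and 27 counts in dCAMP. The groups of PMEL overlapped. The part of MLANA and PMEL in the results was not tested. The leukocyte markers CD3E and PTPRC were at 0 in every library. In such bulk samples, fewer cells of a type and less RNA per cell cannot be told apart.

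The gas libraries stood further apart than the dCAMP libraries. Over the 34 members tested, the median SD of log2 CPM (counts scaled to library size) was 0.187 in gas and 0.0957 in dCAMP, against 0.209 and 0.0792 over all 14708 genes tested. Gas 1 was the highest and gas 3 the lowest gas library for 16 of the 34 members (47.1%, against 36.3% of all genes tested). The opposite order held for 6 members (17.6%, against 36.5%), namely ADAM10, ADAM9, ADAM17, ADAM22, ADAMTS6 and ADAMTS3. Among the fits that left out 1 library, the fit without gas 3 changed the most calls. Values without gas 3 are therefore given for the members whose call changed in that fit. Values without gas 1 or gas 3 are given for abundant members whose fold change moved with them.

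In CPEK cells, 19 of the 68 members had a mean level of at least 1 FPKM. TIMP3 was the most abundant, with a mean of 164 FPKM over the 6 libraries and rank 414 among all genes. MMP14, a membrane-anchored collagenase that also activates MMP2, followed at 65.1 FPKM. MMP2, a gelatinase, stood at 59.4 FPKM and MMP28 (epilysin, an MMP made by keratinocytes) at 58.9 FPKM, and the ranges of MMP14, MMP2 and MMP28 over the libraries overlapped. Then came the sheddase ADAM10 at 34 FPKM and the secreted proteoglycanase ADAMTS1 at 31.2 FPKM. TIMP1 and TIMP2 had means of 26.7 and 24.8 FPKM, and ADAM9 of 21.1 FPKM. From ADAM10 to ADAM9, neighbours in this order had overlapping ranges over the libraries.

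The middle of the order held ADAM17 at 10.9 FPKM, ADAM15 at 9.64 FPKM and the non-enzymatic ADAMTSL5, ADAMTSL4 and ADAMTSL1 at 8.62, 7.84 and 5.02 FPKM. The lowest were MMP11 at 3.23, MMP15 at 2.25, the interstitial collagenase MMP1 at 1.55, MMP19 at 1.24 and the collagenase MMP13 at a mean of 1 FPKM. FPKM divides by the annotated transcript length, which was 538 bases for TIMP2 and 846 bases for TIMP3, shorter than the 2399 bases of the leading MMP14 transcript and the 4641 bases of ADAM10. The order of levels rests on those annotated lengths.

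**Figure D1:**
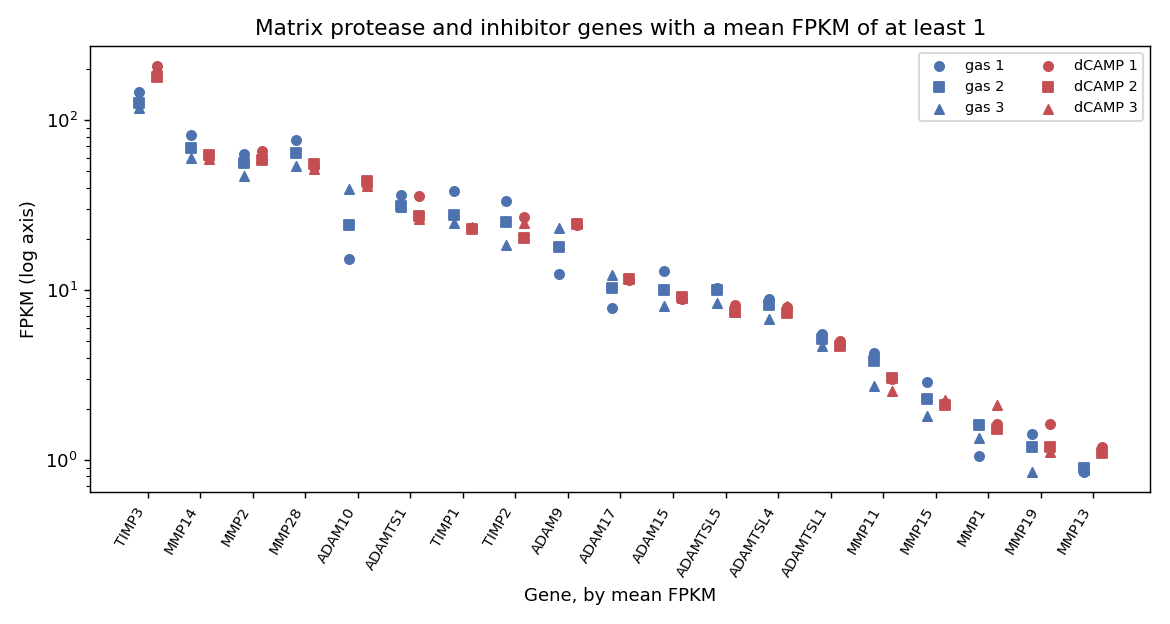
Level in FPKM (log axis) of the 19 members with a mean of at least 1 FPKM, in order of that mean, with 1 point per library, gas in blue and dCAMP in red. TIMP3 stands highest in every library, and the 3 blue points of ADAM10 and ADAM9 are spread widely while their red points lie together.

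The other side of the repertoire was nearly silent. Of the 34 members not tested, 16 had a count of 0 in all 6 libraries and 18 had at most 13 counts in any library. A true level of up to 3 counts can give a count of 0, by counting error alone. Members at 0 throughout included TIMP4, the neutrophil collagenase MMP8, the macrophage elastase MMP12 and the aggrecanase ADAMTS5. MMP9, a gelatinase known from migrating keratinocytes, had 8 counts in dCAMP 1 and 0 in each of the other 5 libraries. MMP3 (stromelysin) had 4 counts in dCAMP 2 and 0 elsewhere.

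Of the members that neighbour each other in the genome (CanFam3.1), 8 MMP genes lie on chromosome 5 between positions 28793568 and 29196157. MMP13, MMP1, MMP27 and MMP7 of this cluster passed the filter for testing, MMP3 and MMP20 had a few counts, and MMP12 and MMP8 had none. On chromosome 31, ADAMTS1 and ADAMTS5 lie together between positions 22169821 and 22289453, the first at 31.2 FPKM and the second at a count of 0 in every library.

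Each member was then compared between dCAMP and gas with edgeR's quasi-likelihood test across all 14708 genes, to learn whether plasma exposure changed the proteases and inhibitors that remodel the matrix. After Benjamini-Hochberg adjustment, 0 of the 34 members passed 0.05 (smallest adjusted p = 0.221), as did 0% of all genes tested. By the 2-fold criterion (at least a 2-fold difference and an unadjusted p below 0.05), 0 members were called, against 1.09% of all genes. At an unadjusted p under 0.05 alone, 4 members were higher in dCAMP (TIMP3, MMP13, MMP25 and ADAMTS6, against 6.81% of all genes) and 3 were lower (ADAMTS17, ADAM8 and ADAMTSL5, against 13.9%). As each library was left out in turn, between 2 and 15 members were under 0.05, with 2 (5.88% of those tested, against 8.23% of all genes) without dCAMP 1 and 15 (44.1%, against 49.2%) without gas 3. The number was also 2 without gas 2 (against 8.25% of all genes) or dCAMP 3 (against 6.86%). It was 5 (14.3%, against 20.6%) without gas 1 and 6 (17.1%, against 9.61%) without dCAMP 2. DESeq2 gave an adjusted p under 0.05 to 2 members, TIMP3 and ADAMTS17, against 1.05% of all genes it tested.

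The members split evenly by direction, 16 with a positive and 18 with a negative log2 fold change. Their median was -0.02, beside 0.03 over all genes tested. By family the median was -0.09 for the 3 TIMP, 0.10 for the 13 MMP, 0.33 for the 8 ADAM, -0.13 for the 7 ADAMTS and -0.06 for the 3 ADAMTSL genes tested. As each library was left out in turn, these medians ran from -0.32 to 0.11 for TIMP, from -0.071 to 0.17 for MMP, from 0.13 to 0.49 for ADAM, from -0.26 to -0.073 for ADAMTS and from -0.17 to -0.038 for ADAMTSL, so those of TIMP and MMP changed sign. The values of the 3 dCAMP libraries lay all above those of the gas libraries for 5 members (TIMP3, MMP13, MMP25, ADAM10 and ADAM9, against 19% of all genes). They lay all below for another 5 (TIMP1, ADAM8, ADAMTS10, ADAMTS17 and ADAMTSL5, against 20.9%). These shares are near or under those of all genes. Without gas 3, edgeR gave 11 members an adjusted p under 0.05, 5 higher and 6 lower in dCAMP, against 33.1% of all genes tested. They were TIMP3, ADAM10, ADAM9 and, named after their values were seen, ADAM22 (log2 fold change 1.36, against 0.72 with all libraries) and ADAMTS3 (0.70 against 0.46), all higher, and TIMP1, MMP14, MMP28, MMP11, ADAMTS17 and ADAMTSL5, all lower. The adjusted p without gas 3 was 0.0266 for ADAM22 and 0.0271 for ADAMTS3 by edgeR. Without gas 1 the log2 fold change was 0.44 for ADAM22 (adjusted p = 0.532) and 0.27 for ADAMTS3 (adjusted p = 0.433). Corrected for gene length, with all 6 libraries, it was 0.52 for ADAM22 and 0.26 for ADAMTS3.

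**Figure D2:**
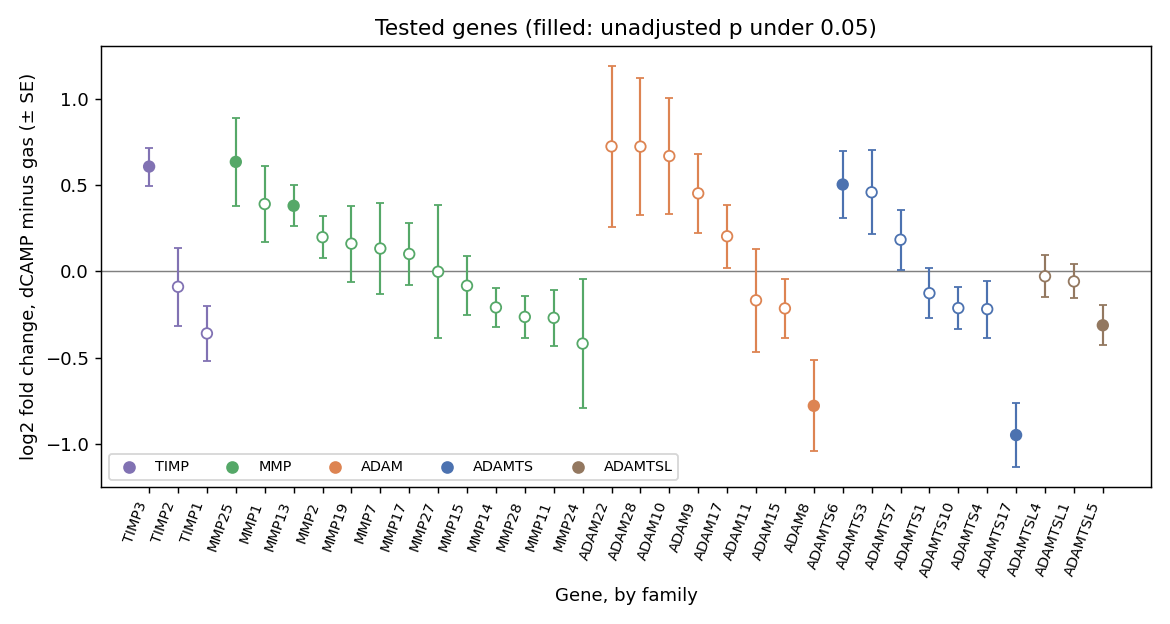
Log2 fold change (dCAMP minus gas) with its standard error for the 34 members tested, grouped by family, filled where the unadjusted p was under 0.05. TIMP3 stands at 0.61 with a short bar, ADAMTS17 at -0.95, and the ADAM genes ADAM22, ADAM28 and ADAM10 have long bars.

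Among the inhibitors, TIMP3 had the smallest unadjusted p of all members and did not pass after adjustment. TIMP3 (gene 481289, chromosome 10, 30627154 to 30681520) was at 147, 126 and 117 FPKM in gas 1, 2 and 3 and at 208, 179 and 206 FPKM in dCAMP 1, 2 and 3. All 3 dCAMP libraries lay above all 3 gas libraries. The mean was 130 ± 15.0 FPKM in gas and 197 ± 16.2 in dCAMP (SD, n = 3), a fold of 1.52. The log2 fold change was 0.61 (SE 0.11), with an unadjusted p of 0.00124 and an adjusted p of 0.221 by edgeR, and it stayed between 0.50 and 0.67 as each library was left out in turn. Without gas 3 it was 0.50 (adjusted p = 0.0271). By DESeq2 the adjusted p was 0.0194. The TIMP3 locus lies within that of SYN3, a synaptic gene that reached at most 0.0983 FPKM in any library.

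TIMP1 (gene 403816, chromosome X, 41201623 to 41205314), a secreted inhibitor of most MMPs, was at 38.0, 27.6 and 24.6 FPKM in gas and at 23.3, 22.9 and 23.6 FPKM in dCAMP. The groups did not overlap, although gas 3 was close to the dCAMP libraries. The log2 fold change was -0.36 (SE 0.16), with an unadjusted p of 0.0641 and an adjusted p of 0.254 by edgeR. It was -0.52 without gas 3 (adjusted p = 0.0459) and -0.20 without gas 1 (adjusted p = 0.275). TIMP2, which together with MMP14 takes part in the activation of MMP2, was at 33.4, 25.0 and 18.5 FPKM in gas and at 26.8, 20.3 and 24.7 FPKM in dCAMP. Gas alone covered the full range of the dCAMP values, and the log2 fold change was -0.09 (SE 0.23, adjusted p = 0.798), with -0.32 without gas 3 and 0.11 without gas 1.

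The inhibitors as a family were read beside the MMPs, with a ratio chosen after the values were seen and given without a test. The summed TIMP level was 218, 179 and 161 FPKM in gas and 258, 222 and 255 FPKM in dCAMP. The summed MMP level was 233, 200 and 170 FPKM in gas and 190, 186 and 188 FPKM in dCAMP. Every dCAMP library thus had a higher TIMP sum than every gas library, while the MMP sums overlapped. The ratio of TIMP to MMP was 0.936, 0.897 and 0.946 in gas and 1.35, 1.19 and 1.36 in dCAMP, with means of 0.927 ± 0.0257 and 1.30 ± 0.0940 (SD, n = 3). On the CPM scale, which is not divided by length, the ratio was 0.30, 0.289 and 0.308 in gas and 0.440, 0.391 and 0.443 in dCAMP.

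TIMP3 made up 70.3% ± 2.95 of the TIMP sum in gas and 80.7% ± 0.257 in dCAMP (SD, n = 3). With TIMP3 left out, the ratio was 0.306, 0.264 and 0.254 in gas and 0.263, 0.232 and 0.258 in dCAMP, and the groups overlapped.

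**Figure D3:**
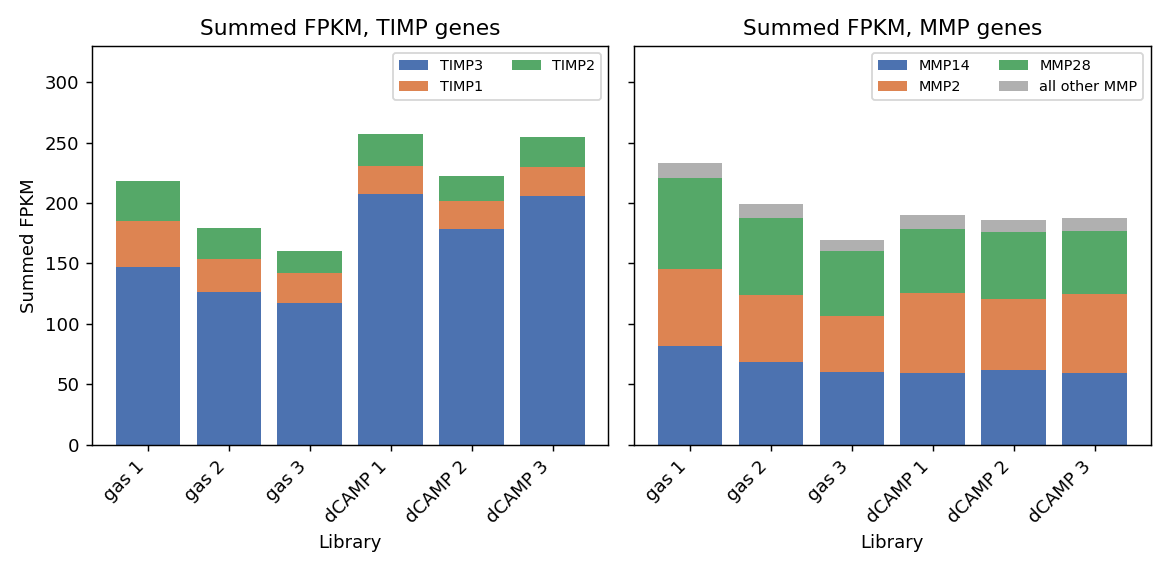
Summed FPKM of the TIMP genes (left) and of the MMP genes (right) in each of the 6 libraries, with the bars divided by gene. The TIMP3 block is taller in the 3 dCAMP libraries, and MMP14, MMP2 and MMP28 fill most of the MMP bar in every library.

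MMP14, MMP2 and MMP28 carried 94.5% ± 0.368 of the summed MMP level in gas and 94.1% ± 0.209 in dCAMP (SD, n = 3). MMP14 (chromosome 8, 3183419 to 3193079) was at 81.5, 68.1 and 59.9 FPKM in gas and at 59.7, 62.1 and 59.2 FPKM in dCAMP. The dCAMP libraries sat at the level of gas 3, and the log2 fold change was -0.21 (SE 0.11, adjusted p = 0.294 by edgeR). MMP28 (chromosome 9, 37873364 to 37907724) gave a similar picture, with 75.9, 63.6 and 53.9 FPKM in gas, 53.3, 55.2 and 51.6 FPKM in dCAMP, and a log2 fold change of -0.26 (SE 0.12, adjusted p = 0.258). MMP2 (chromosome 2, 60471092 to 60492991) was at 63.5, 56.0 and 46.9 FPKM in gas and at 65.7, 58.5 and 65.8 FPKM in dCAMP. Its groups overlapped, with gas 3 the lowest library, and the log2 fold change was 0.20 (SE 0.12, adjusted p = 0.325). Without gas 3 the log2 fold change was -0.34 for MMP14 (adjusted p = 0.0396), -0.41 for MMP28 (adjusted p = 0.0276) and 0.053 for MMP2 (adjusted p = 0.687). Without gas 1 it was -0.12, -0.17 and 0.27, with adjusted p of 0.417, 0.319 and 0.237.

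Of the collagenases, MMP13 was at 0.851, 0.896 and 0.871 FPKM in gas and at 1.19, 1.09 and 1.13 FPKM in dCAMP. The 3 libraries of each group lay close together and the groups did not overlap, at a level of between 140 and 203 counts. The log2 fold change was 0.38 (SE 0.12), with an unadjusted p of 0.0173 and an adjusted p of 0.221 by edgeR. MMP1, its neighbour on chromosome 5, was at 1.05, 1.61 and 1.35 FPKM in gas and at 1.63, 1.52 and 2.12 FPKM in dCAMP. The groups overlapped, and the log2 fold change was 0.39 (SE 0.22, adjusted p = 0.30), with 0.21 without dCAMP 3 and 0.22 without gas 1.

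MMP25, a membrane-bound MMP best known from leukocytes, was low, at 0.156 ± 0.0137 FPKM in gas and 0.247 ± 0.0651 in dCAMP (SD, n = 3). It had between 29 and 57 counts per library, and the groups did not overlap in CPM (log2 fold change 0.63, SE 0.25, adjusted p = 0.239). MMP11 (stromelysin-3), MMP15 (a membrane-bound MMP) and MMP19 had log2 fold changes of -0.27, -0.08 and 0.16 with overlapping groups. Without gas 3 that of MMP11 was -0.45 (adjusted p = 0.0394). Of the 13 MMP genes tested, 7 had a positive and 6 a negative log2 fold change.

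The leading ADAM genes were marked by the spread of the gas libraries. ADAM10 (gene 478321, chromosome 30, 23605724 to 23732038) was at 15.2, 24.0 and 39.6 FPKM in gas and at 40.7, 43.8 and 41.0 FPKM in dCAMP. The dCAMP libraries were close together and above all gas libraries, but gas 3 was nearly level with them and gas 1 was far below. The mean was 26.2 ± 12.4 FPKM in gas and 41.8 ± 1.70 in dCAMP (SD, n = 3). The log2 fold change was 0.67 (SE 0.34, adjusted p = 0.276 by edgeR). Without gas 3 it was 1.06 (adjusted p = 0.0230), and without gas 1 it was 0.37 (adjusted p = 0.282). Corrected for gene length, with all 6 libraries, it was 0.52 (adjusted p = 0.270 by edgeR).

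ADAM9 (chromosome 16, 26413345 to 26551293), a membrane protease expressed in epidermis, had the same pattern at 12.4, 17.8 and 23.2 FPKM in gas and 24.0, 24.4 and 24.8 FPKM in dCAMP. Its log2 fold change was 0.45 (SE 0.23, adjusted p = 0.278), and it was 0.66 without gas 3 (adjusted p = 0.0357) and 0.22 without gas 1. ADAM17, the main sheddase of TNF and of several EGF receptor ligands, was at 7.81, 10.2 and 12.3 FPKM in gas and at 11.4, 11.6 and 11.8 FPKM in dCAMP. Gas 3 was the highest of the 6 libraries, so the groups overlapped (log2 fold change 0.20, SE 0.18, adjusted p = 0.459). The value was 0.34 without gas 3 (adjusted p = 0.106) and 0.020 without gas 1. Corrected for gene length, it was 0.11 for ADAM17, beside 0.32 for ADAM9 and -0.37 for ADAM15. ADAM15 was at 12.9, 10.0 and 8.04 FPKM in gas, where gas 1 was the highest library, and at 8.83, 9.07 and 8.93 FPKM in dCAMP (log2 fold change -0.21, SE 0.17, adjusted p = 0.416), with -0.41 without gas 3 (adjusted p = 0.0595) and -0.051 without gas 1.

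The ratio of ADAM10 to ADAM17, sheddases that share several substrates, was 1.94, 2.34 and 3.22 in gas and 3.57, 3.76 and 3.47 in dCAMP, given as a description without a test. This ratio was not among the planned results, and gas 1 was its lowest library, as for ADAM10. ADAM8, an ADAM known from myeloid cells, was low, with 43, 53 and 43 counts in gas and 19, 30 and 20 counts in dCAMP. All dCAMP libraries were below the gas libraries, and the log2 fold change was -0.78 (SE 0.26), with an unadjusted p of 0.0236 and an adjusted p of 0.222.

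**Figure D4:**
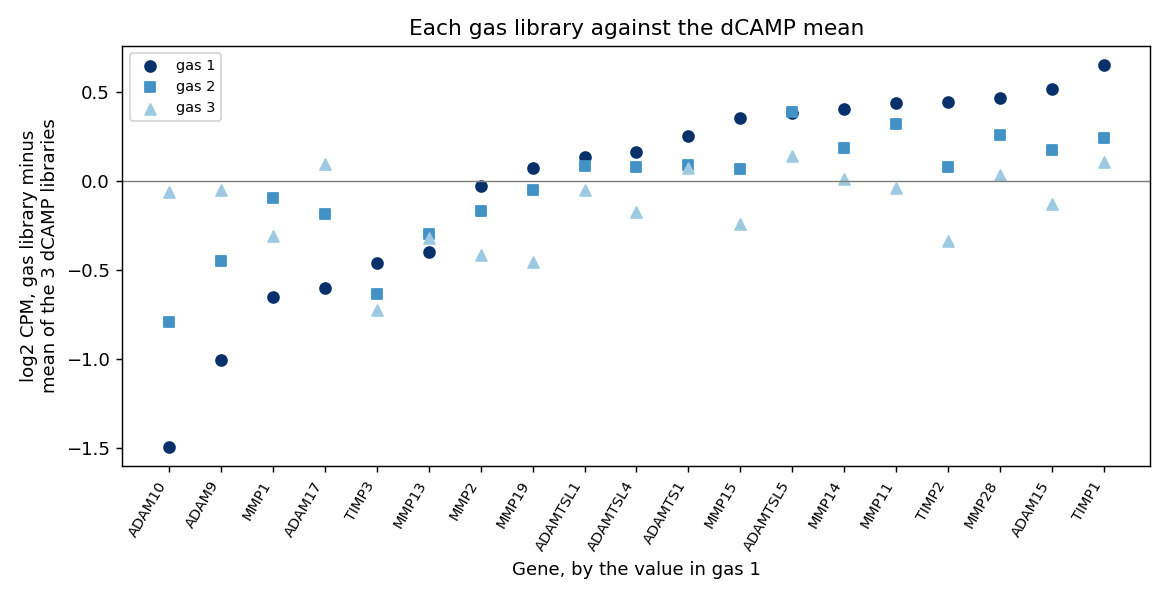
Log2 CPM of each gas library minus the mean of the 3 dCAMP libraries, for the 19 members with a mean of at least 1 FPKM, ordered by the value in gas 1, with the dCAMP mean at 0. Gas 1 lies at -1.49 for ADAM10 and at 0.65 for TIMP1, while gas 3 lies near 0 for both, and all 3 gas libraries lie between -0.73 and -0.46 for TIMP3.

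The member with the lowest log2 fold change of all was ADAMTS17 (gene 488708, chromosome 3, 40613902 to 40939616), a secreted protease of the ADAMTS family. It had 55, 61 and 53 counts in gas and 25, 23 and 27 counts in dCAMP, or 0.154 ± 0.0157 and 0.0763 ± 0.00599 FPKM (SD, n = 3). The groups did not overlap. The log2 fold change was -0.95 (SE 0.19), a fold of 0.519, with an unadjusted p of 0.00186 and an adjusted p of 0.221 by edgeR. By edgeR it stayed between -1.06 and -0.92 as each library was left out in turn, with an adjusted p of 0.0233 without gas 3. DESeq2 gave -1.01 (adjusted p = 0.0487), which met the 2-fold criterion, as did 2.14% of all genes in that fit. The criterion was also met without gas 3 (10.2% of all genes) or dCAMP 3 (0.911%), under voom (6.87%) and with the length correction (1.08%). The longest of its 5 annotated transcripts held 43.8%, 81.8% and 100% of the gene's level in gas 1, 2 and 3 and 100% in each dCAMP library, at these low counts.

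ADAMTS1, the only ADAMTS gene with a mean of at least 1 FPKM, was at 36, 31.2 and 30.7 FPKM in gas and at 35.8, 27.4 and 26.1 FPKM in dCAMP. dCAMP 1 was as high as gas 1, and the log2 fold change was -0.13 (SE 0.14, adjusted p = 0.556). It was -0.29 without dCAMP 1 (adjusted p = 0.470) and -0.073 without dCAMP 3 (adjusted p = 0.809). With a correction for gene length it was -0.33 (adjusted p = 0.279). ADAMTS6 was at 0.576 ± 0.0962 FPKM in gas and 0.821 ± 0.180 in dCAMP (SD, n = 3), with overlapping groups (log2 fold change 0.50, SE 0.20, adjusted p = 0.236). Its log2 fold change was 0.33 with the length correction (adjusted p = 0.284 by edgeR). ADAMTS10, which shares a role in microfibril biology with ADAMTS17 and ADAMTS6 and is named after its values were seen, was at 1.05 ± 0.117 FPKM in gas and 0.890 ± 0.0518 in dCAMP (SD, n = 3), with a log2 fold change of -0.21 (SE 0.12).

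Of the ADAMTS-like genes, ADAMTSL5 (chromosome 20, 57351242 to 57357934) was at 10.3, 10.1 and 8.37 FPKM in gas and at 8.16, 7.38 and 7.47 FPKM in dCAMP. The groups did not overlap, though gas 3 was close to dCAMP 1, and the log2 fold change was -0.31 (SE 0.12, adjusted p = 0.229). Without gas 3 it was -0.44 (adjusted p = 0.0280). ADAMTSL4 and ADAMTSL1 had log2 fold changes of -0.03 (SE 0.12) and -0.06 (SE 0.10), with overlapping groups. Without gas 3 these were -0.17 and -0.16, and without gas 1 they were 0.025 and -0.038. With the correction for gene length they were -0.21 and -0.34.

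**Figure D5:**
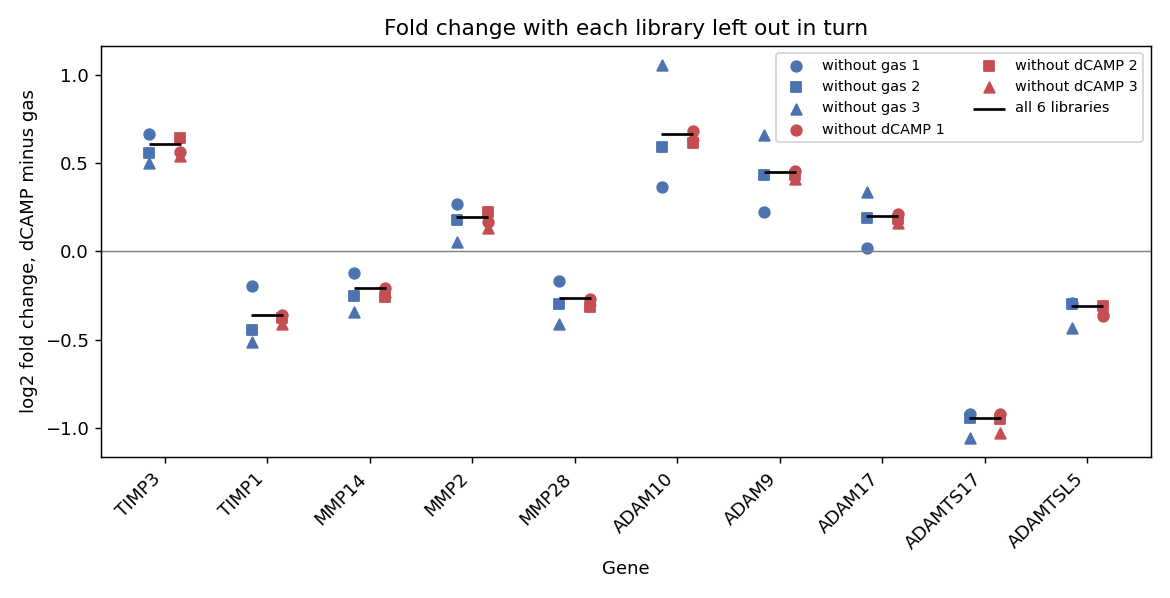
Log2 fold change (dCAMP minus gas) of 10 members with each library left out in turn (blue, a gas library; red, a dCAMP library) and with all 6 libraries (black line). ADAM10 runs from 0.37 to 1.06 with the gas library left out, whereas TIMP3 stays between 0.50 and 0.67 and ADAMTS17 between -1.06 and -0.92.

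Where a gene had several annotated transcripts, the division of its level among them was read as well. The leading transcript held 88.7% of the MMP14 level and 91.8% of the MMP28 level on average, with narrow ranges over the libraries (87.6% to 89.6% and 89.8% to 95.7%). For TIMP1 it held 74.7% on average, between 69.7% and 79.2%. For ADAM17 the leading of 6 transcripts held between 37.5% and 63.8%, and for ADAM15 the leading of 22 transcripts held 31.5% on average. For these 2 genes the division among transcripts varied more over the libraries than for MMP14 or MMP28.

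The partners of the proteases were described from 6 further lists. In these lists 0 genes had an adjusted p under 0.05 by edgeR and 0 met the 2-fold criterion, while without gas 3, 13 of their 23 named genes had an adjusted p under 0.05 (against 33.1% of all genes tested in that fit), named in part for the smallest p of their list. The counts at an unadjusted p under 0.05 stand beside 6.81% of all genes higher and 13.9% lower in dCAMP. Of the activators and regulators, 5 were tested and 1 had an unadjusted p under 0.05 (against 13.9% of all genes lower): BSG (basigin, an inducer of MMPs), lower in dCAMP at 150 ± 1.45 FPKM against 183 ± 27.9 in gas (SD, n = 3, log2 fold change -0.28, SE 0.11). PCSK7, a convertase of the furin family, had a log2 fold change of -0.26 (SE 0.11), and TFPI2, a serine protease inhibitor of the matrix, of 0.28 (SE 0.15). Without gas 3 the log2 fold change was -0.43 for BSG, -0.38 for PCSK7 and 0.39 for TFPI2, with adjusted p of 0.0212, 0.0270 and 0.0362. Without gas 1 that of TFPI2 was 0.14.

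Of the 8 tested partners of ADAM10 and ADAM17, RHBDF2 alone had an unadjusted p under 0.05, in the direction that 13.9% of all genes had. RHBDF2 encodes iRhom2, which carries ADAM17 to the cell surface. It was at 23.9, 21.6 and 19.4 FPKM in gas and at 16.5, 16.8 and 17.2 FPKM in dCAMP, with no overlap (log2 fold change -0.40, SE 0.11, adjusted p = 0.221). FRMD8, which stabilises the iRhom complex, had a log2 fold change of -0.24 (SE 0.12). TSPAN17 and TSPAN15, tetraspanins that bind ADAM10, had log2 fold changes of -0.03 (SE 0.09) and -0.18 (SE 0.13). Without gas 3 the log2 fold change was -0.53 for RHBDF2 and -0.36 for FRMD8, with adjusted p of 0.0216 and 0.0469. Without gas 1 that of FRMD8 was -0.15.

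Of 13 tested substrates shed by these enzymes, 2 were higher and 4 lower at an unadjusted p under 0.05, against 6.81% and 13.9% of all genes. AREG (amphiregulin, an EGF receptor ligand) was at 143, 220 and 232 FPKM in gas and at 285, 266 and 279 FPKM in dCAMP (log2 fold change 0.48, SE 0.20, adjusted p = 0.240). Its lowest library was gas 1, as for ADAM10. CX3CL1, a membrane-tethered chemokine, had a log2 fold change of -0.33 (SE 0.11), NOTCH1 of -0.26 (SE 0.10) and the proteoglycan SDC1 of -0.21 (SE 0.10). Without gas 3 these were -0.44, -0.38 and -0.33, with adjusted p of 0.0269, 0.0276 and 0.0357. Without gas 1, AREG was at 0.26 and SDC1 at -0.13 on the same scale.

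Of 12 tested matrix substrates, 1 was higher and 3 were lower at an unadjusted p under 0.05, against 6.81% and 13.9% of all genes. THBS1 (thrombospondin-1, a matricellular glycoprotein) was at 77.1, 79.6 and 80.6 FPKM in gas and at 116, 105 and 119 FPKM in dCAMP. The gas libraries lay close together and below every dCAMP library, and the log2 fold change was 0.52 (SE 0.08), with an unadjusted p of 0.000541 and an adjusted p of 0.221 by edgeR and an adjusted p of 0.00531 by DESeq2. COL4A2, a basement membrane collagen, had a log2 fold change of -0.29 (SE 0.10). COL17A1, part of the anchoring of keratinocytes to the basement membrane, had a log2 fold change of -0.02 (SE 0.07). Without gas 3 the log2 fold change was 0.50 for THBS1 and -0.41 for COL4A2, with adjusted p of 0.0213 and 0.0269.

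Of 9 tested proteases outside these families, CTSK (cathepsin K, a collagen-cutting lysosomal protease) was higher at 15.3 ± 1.40 FPKM in dCAMP against 11.4 ± 0.769 in gas (SD, n = 3, log2 fold change 0.42, SE 0.12, adjusted p = 0.221). ST14 (matriptase, an epithelial membrane protease) had a log2 fold change of -0.33 (SE 0.12), HTRA1 of -0.11 (SE 0.10) and CTSD of -0.20 (SE 0.17). Without gas 3 that of ST14 was -0.47 and that of HTRA1 -0.24, with adjusted p of 0.0227 and 0.0467. Without gas 1 that of HTRA1 was -0.049. Of the 10 AP-1 and ETS factors, which bind many MMP promoters, 0 had an unadjusted p under 0.05. ETV4, FOSL1, JUNB and JUND had log2 fold changes of -0.30 (SE 0.14), -0.23 (SE 0.13), -0.27 (SE 0.20) and -0.11 (SE 0.11). Without gas 3 that of ETV4 was -0.45, with an adjusted p of 0.0376 by edgeR, and without gas 1 those of ETV4, FOSL1 and JUNB were -0.18, -0.14 and -0.10. The highest values of the list, named after they were seen, were those of FOS and FOSB, at 0.75 (SE 0.56) and 0.67 (SE 0.62). FOS was at 20, 12.3 and 9.77 FPKM in gas and at 43.6, 10.3 and 16.4 FPKM in dCAMP, where dCAMP 1 stood above every other library.

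With limma's voom and sample quality weights, 19 of the 34 members had an adjusted p under 0.05, 10 higher and 9 lower in dCAMP, against 60.8% of all genes tested.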

How the data were processed

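The authors trimmed reads with Trimmomatic 0.38, mapped them to CanFam3.1 with HISAT2 2.1.0 and summarized known transcripts with StringTie 2.1.3b. The read counts the authors deposited are raw whole numbers for each gene, and their FPKM values are scaled to transcript length and mapped reads. The annotation release and the counting of reads on overlapping genes are not given in the sources used here. The 12 TPM columns were not used.

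Counts were analysed in R 4.3.3 with edgeR 4.0.16 (TMM, filterByExpr, prior count of 2, quasi-likelihood test, Benjamini-Hochberg adjustment over 14708 genes), with DESeq2 1.42.0 and limma 3.58.1 as alternatives. The steps were tested on simulated data. Each SE was computed as the fold change over the root of the F statistic. Groups were called not overlapping on normalized CPM. An exact permutation test of 3 against 3 libraries cannot go below p = 0.1.

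Members and lists were chosen with earlier results of these data known. Named members had a mean of at least 1 FPKM, were called, were on a fixed list of well-known members or had the 2 smallest unadjusted p of a family. Of each further list, the 2 smallest p and the 2 highest levels were named, except for 1 gene that is not reported here, and the summed leukocyte markers are not reported here either. MMP10, A2M, TSPAN10, CTSL and CTSV had no row under that symbol in the table. Of the 26 named members, 9 have a locus that overlaps another gene.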

Additional observations from a re-analysis of the deposited data

How the results depend on the processing

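With all 6 libraries, edgeR gave 0 members an adjusted p under 0.05, 0 members by the 2-fold criterion, 10 members whose groups do not overlap and a median log2 fold change of -0.02. As each library was left out in turn, these 4 values ranged from 0 to 11, from 0 to 3, from 11 to 22 and from -0.16 to 0.062. The values 11, 3, 22 and -0.16 came without gas 3. The 3 stand against 10.2% of all genes called in that fit, and the 11 against 33.1%. The 22 are 64.7% of the members tested, against 68.7% of all genes in that fit, and the 10 are 29.4% against 39.9%. By adjusted p, DESeq2 called 2 members and voom with sample quality weights 19. By the 2-fold criterion DESeq2 called 1, ADAMTS17 (2.14% of all genes), and voom 3 (6.87%). The length correction also called 1, ADAMTS17 (1.08%, and 3.22% with the replicate block). The cause was not tested. The replicate numbers were not taken as pairing the libraries, since same-numbered libraries deviated together with correlations of 0.130, 0.0237 and 0.0479 and gas 3 correlated best with dCAMP 2. The fit with the replicate block called 0 members by either criterion, with a median of -0.03, and so changed no call by either. At an unadjusted p under 0.05 it left 4 members in place of 7 (18.9% against 20.7% of all genes), and MMP13, MMP25 and ADAMTSL5 no longer passed. The length correction left 5 (21.1% of all genes): MMP13, MMP25 and ADAMTS6 no longer passed and ADAMTS10 did.

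Of 736 log2 fold changes of the named genes under the alternatives, 670 kept direction and side of the threshold, 59 passed it and 7 changed sign. As each library was left out in turn, the log2 fold change ran from -0.27 to 0.062 for MMP15, from -0.32 to 0.11 for TIMP2, from -0.17 to 0.025 for ADAMTSL4, from -0.13 to 0.024 for TSPAN17 and from -0.11 to 0.015 for COL17A1, each above 0 without gas 1 only. For MMP19 it ran from -0.045 without gas 3 to 0.27, and was -0.0064 without dCAMP 1. ADAMTS17, MMP25 and ADAM8 had at most 61 counts in any library. Family medians also moved: MMP was -0.058 under voom, ADAM -0.17 with no filter on low counts, and ADAMTS and ADAMTSL -0.33 and -0.34 under the length correction.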
